A study of Mus musculus with 12 samples.

Results

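Perforin, the granzymes encoded outside the granzyme B cluster and other proteins of the cytolytic granule were examined in mouse cytotoxic T lymphocytes (CTL), the effector form of CD8 T cells. The 9 members were chosen by name and found by gene symbol in the deposited expression table: Prf1, Gzma, Gzmk, Gzmm, Srgn, Ctsc, Ctsw, Nkg7 and Fasl, all 9 of which were among the 13283 genes listed. The study asked how sustained inhibition of the PI3K catalytic subunit p110δ, and loss of the transcription factor FOXO1, shape the transcriptome of CTL. There were 4 groups of 3 libraries. WT CTL came from female mice that carried a Cre recombinase driven by the granzyme B promoter (GzmB cre+). FOXO1-GFP KO CTL came from females that in addition were FOXO1-GFP fl/fl, in which exon 2 of the Foxo1-GFP allele is flanked by LoxP sites. The mice were between 11 and 27 weeks old. Each genotype was cultured for 24 h with 10 µM IC87114, the p110δ inhibitor (PI3Kdi), or without it (vehicle, DMSO). All CTL had been activated for 48 h through CD3 and CD28 and then grown with IL-2 (20 ng/mL) plus IL-12 (2 ng/mL). WT CTL were sorted as CD8+ cells and FOXO1-GFP KO CTL as CD8+GFP- cells, so the sort gate differed with genotype, and the Cre that deletes Foxo1 is expressed only once the granzyme B promoter is active.

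CTL kill by releasing granules into the contact with a target cell. Perforin (Prf1) opens pores in the target membrane and granzymes, which are serine proteases, enter and cleave proteins inside it. Granzyme A (Gzma) and granzyme K (Gzmk) cut after basic residues, and granzyme M (Gzmm) after methionine or leucine. Serglycin (Srgn) is the proteoglycan core on which granule proteins are packed. Cathepsin C (Ctsc) removes the dipeptide that keeps granzymes inactive, and cathepsin W (Ctsw) is a cysteine protease found mostly in CD8 T cells and NK cells. NKG7 is a membrane protein of the granule with a part in degranulation. Fas ligand (Fasl) kills by a separate route, through the death receptor Fas. FOXO1 is held out of the nucleus by AKT when PI3K is active.

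The members that the comparisons turn on are shown with the sequence around their start sites, taken from RefSeq on GRCm38.p6, as 250 bases before and 50 bases from the annotated start. They are the 3 members called between genotypes (Gzmm, Fasl and Gzmk), Prf1, which was lower with PI3Kdi in every pair, and Gzma, the most abundant of the 4 members that were higher in every pair. Capitals mark matches, on either strand, to 1 of 5 letter strings that were searched for: TGTTTAC (FOXO), GGTGTGA (T-box), TGTGGTT (RUNX), TTCNNNGAA (STAT) and TGANTCA (AP-1).
Gzmm, chr10:79688770-79689069, plus strand: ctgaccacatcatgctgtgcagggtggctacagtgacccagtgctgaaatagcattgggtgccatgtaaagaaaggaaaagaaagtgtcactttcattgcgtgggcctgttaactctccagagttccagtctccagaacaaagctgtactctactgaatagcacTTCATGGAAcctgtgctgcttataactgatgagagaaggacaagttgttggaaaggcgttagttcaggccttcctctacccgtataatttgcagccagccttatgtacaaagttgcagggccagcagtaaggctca
Fasl, chr1:161788446-161788745, minus strand: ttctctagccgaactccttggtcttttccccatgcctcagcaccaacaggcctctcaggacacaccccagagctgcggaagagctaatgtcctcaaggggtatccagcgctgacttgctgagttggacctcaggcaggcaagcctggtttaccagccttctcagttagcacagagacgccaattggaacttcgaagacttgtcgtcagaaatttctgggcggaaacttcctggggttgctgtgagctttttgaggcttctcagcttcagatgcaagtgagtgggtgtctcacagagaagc
Gzmk, chr13:113180916-113181215, minus strand: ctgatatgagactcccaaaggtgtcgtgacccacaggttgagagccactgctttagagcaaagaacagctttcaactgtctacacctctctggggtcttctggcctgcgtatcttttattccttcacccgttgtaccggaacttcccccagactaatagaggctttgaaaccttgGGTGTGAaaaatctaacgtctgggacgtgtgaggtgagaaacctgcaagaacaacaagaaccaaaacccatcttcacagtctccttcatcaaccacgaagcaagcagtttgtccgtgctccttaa
Prf1, chr10:61297586-61297885, plus strand: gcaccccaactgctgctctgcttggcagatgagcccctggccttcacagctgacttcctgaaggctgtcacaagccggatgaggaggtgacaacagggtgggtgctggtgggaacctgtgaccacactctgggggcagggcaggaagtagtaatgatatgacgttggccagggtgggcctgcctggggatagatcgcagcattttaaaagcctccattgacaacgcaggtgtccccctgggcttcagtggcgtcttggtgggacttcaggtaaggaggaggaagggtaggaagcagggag
Gzma, chr13:113100932-113101231, minus strand: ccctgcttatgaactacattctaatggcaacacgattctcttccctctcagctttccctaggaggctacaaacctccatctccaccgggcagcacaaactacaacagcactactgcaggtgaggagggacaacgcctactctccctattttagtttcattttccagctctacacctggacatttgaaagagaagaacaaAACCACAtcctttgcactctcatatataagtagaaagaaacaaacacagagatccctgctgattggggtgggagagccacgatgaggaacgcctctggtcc

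The Gzmm window held a STAT string 86 bases before its start, the Gzmk window a T-box string 75 bases before and the Gzma window a RUNX string (as AACCACA) 51 bases before. The windows of Fasl and Prf1 held none of the 5 strings. A second RefSeq start of Gzmm, 4806 bases further into the gene, had a T-box string. The Gzmk window belongs to a RefSeq start that lies 44943 bases inside the longer GENCODE gene. Of the members not printed, Ctsc and Nkg7 had a T-box and a STAT string each, 1 of the 2 Srgn windows had a RUNX string, and Ctsw had no entry in the sequence table. The FOXO string was found in no window of a member. Among all 32544 windows of this length, 3.66% held the FOXO string, 3.95% the T-box string, 5.29% the RUNX string, 8.33% the STAT string and 7.79% the AP-1 string. A match is a run of letters and was not examined for binding, and no match in a member overlapped another. A missing match says only that these letters are not in the window.

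Expression was given as FPKM, fragments scaled for exon length and library size, so that levels can be set side by side between genes. The libraries held 12.9 to 48.0 M reads (M, 1e6), a depth worked out from the steps between low FPKM values. All 8 CTL markers were in the table, at a sum of 939.4 to 1547.05 FPKM in a library. Foxo1 mRNA, the check of the genotype labels, was at 7.18 ± 2.43 FPKM in WT and 1.03 ± 0.432 FPKM in FOXO1-GFP KO (SD, n = 3). Of markers of other cells, 2 of 6 for NK cells (Klrb1c, and Eomes, which CTL also express), 3 of 8 for B cells, 3 of 8 for myeloid cells, 3 of 4 for CD4 T cells, 1 of 4 for gamma-delta T cells and 3 of 5 for mast cells and basophils were listed. Ncr1, Csf1r and Foxp3 were among the markers with no row. Of those listed, the myeloid marker Fcer1g was at 28.9 ± 11.3 FPKM in WT (SD, n = 3). The CD4 T cell markers Zbtb7b and Cd4 were at 6.43 ± 0.559 and 0.52 ± 0.07 FPKM there. The labels give no sequencing batch, while the study's methods state that all 4 groups were run on the same lane.

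The members ranged widely in WT CTL. Gzma was highest at 4187.02, 4394.45 and 4298.63 FPKM in replicates 1 to 3. It ranked between 2 and 6 among all genes in every one of the 12 libraries and took between 1.19 and 2.09% of the summed FPKM. Nkg7 followed at 1165 ± 229 FPKM, then Prf1 at 414.4 ± 56.6, Srgn at 246.4 ± 21.1 and Ctsw at 145 ± 35.7 FPKM (SD, n = 3). Fasl was at 32.02 ± 2.19, Ctsc at 13.7 ± 1.24, Gzmk at 10.4 ± 1.24 and Gzmm at 4.57 ± 0.741 FPKM. In WT no neighbours in this order overlapped. With PI3Kdi, WT libraries of Prf1 overlapped those of Srgn, and those of Ctsc overlapped those of Gzmk. In both FOXO1-GFP KO groups Gzmm and Gzmk overlapped, and with PI3Kdi Prf1 and Srgn did so as well. Gzmm rested on 90 to 364 estimated reads per library and Gzmk on 134 to 746, while Fasl had at least 927 and Gzma at least 57527. Gzmk overlaps Esm1 and Ctsw overlaps Fibp on the opposite strand, and the library kit keeps strand.

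**Figure D1:**
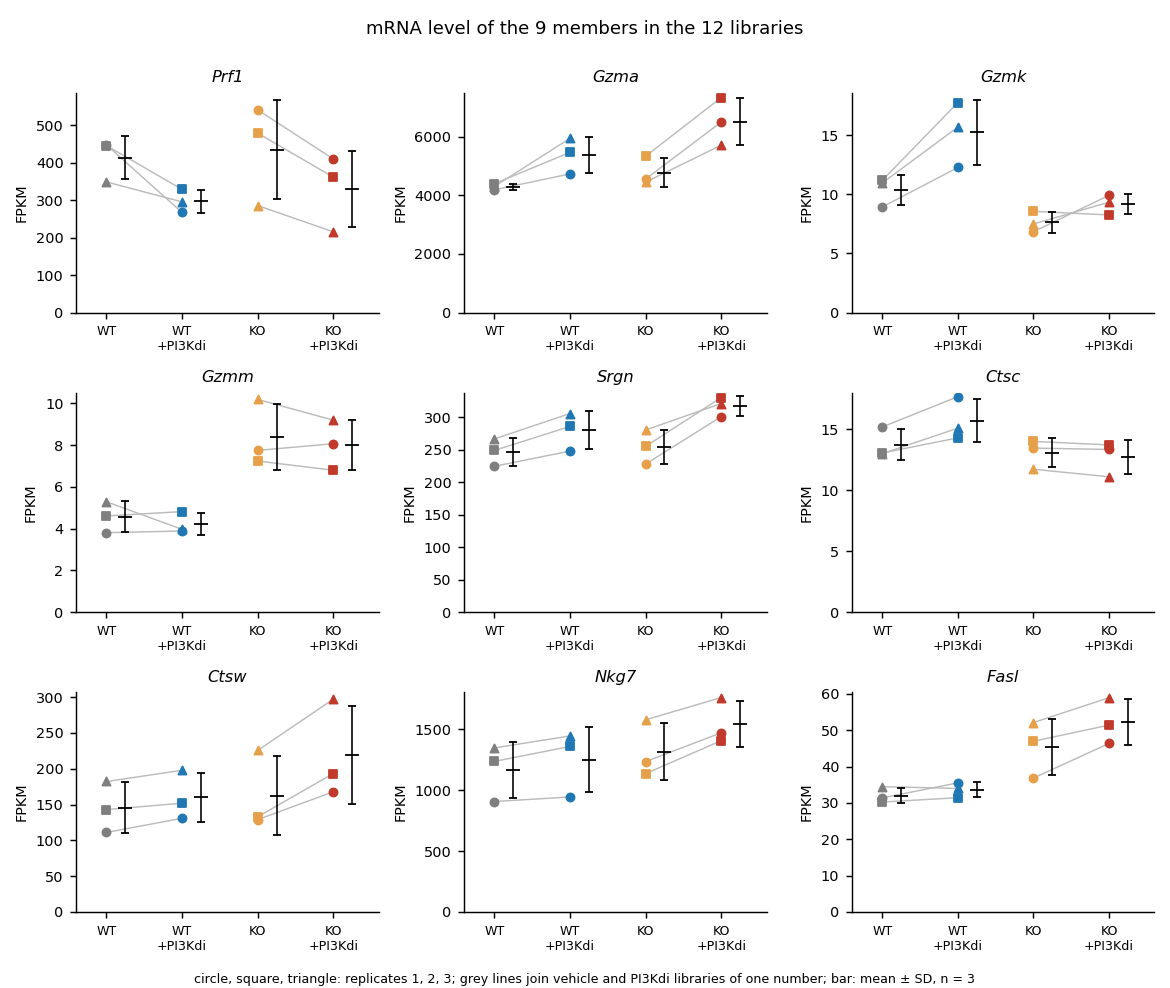
FPKM of the 9 members (vertical axes, each from 0) in the 4 groups, with circles, squares and triangles for replicates 1, 2 and 3, grey lines between the vehicle and PI3Kdi libraries of one replicate number, and black bars for the mean ± SD (n = 3). Every line slopes down for Prf1 and up for Gzma, Srgn, Ctsw and Nkg7, while all 6 FOXO1-GFP KO libraries sit above all 6 WT libraries for Gzmm and Fasl.

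The first comparison addressed whether CTL maintained for 24 h without p110δ activity change their cytolytic mRNA. Prf1 was lower with PI3Kdi in every pair and Gzma, Srgn, Ctsw and Nkg7 were higher in every pair, but no member passed both thresholds (adjusted p under 0.05 and a fold change over 1.5) in either genotype. Of all genes, 0.0979% were called in WT and 0.0452% in FOXO1-GFP KO, against 0 of 9 members each. A vehicle library and the PI3Kdi library of the same genotype and number shared much of their deviation, and with that pairing as a block 2.57% of genes were called in WT and 2.79% in FOXO1-GFP KO, again with 0 of 9 members. At an unadjusted p under 0.05, limma gave 1 member in WT (Gzmk) and 1 in FOXO1-GFP KO (Srgn) without the block and 5 and 7 with it. Over all genes 5.14% and 5.17% reached that p in limma without the block and 23.7% and 29.5% with it. At the same p, voom on estimated reads gave 2 members in each genotype without the block and 5 and 7 with it. The share of all genes is given for limma only. By both thresholds voom called 0 of 9 as well. By adjusted p alone, with the block, 7.41% of genes passed in WT, where Prf1 and Gzmk did so, and 10.1% in FOXO1-GFP KO, where Prf1, Gzma, Srgn and Ctsw did. A direction shared by all 6 pairs was seen in 5 of 9 members and in 23.2% of all genes. In bulk RNA, fewer cells expressing a gene and less mRNA per cell cannot be told apart.

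Prf1 was at 447.87, 446.24 and 349.09 FPKM in WT replicates 1 to 3 and at 267.48, 329.07 and 295.72 FPKM once PI3Kdi was present. The WT groups did not overlap. Here and below, overlap between groups is a description, since the share of all genes without overlap was not counted. FOXO1-GFP KO libraries gave 541.74, 479.61 and 285.93 FPKM with vehicle, and 410.48, 361.93 and 215.86 FPKM with the inhibitor. These groups overlapped because replicate 3 was low both with and without PI3Kdi, yet within pairs the ratio to vehicle was between 0.755 and 0.758, against 0.597 to 0.847 in WT. The log2 fold change was -0.47 ± 0.27 (SE) for WT and -0.40 ± 0.27 for FOXO1-GFP KO without a block (adjusted p = 0.9997 and 0.934), and the SE with the block was 0.115 (adjusted p = 0.0284 and 0.0463). In the fit with the block, without replicate pair 3 of each genotype the WT value was -0.59 and passed both thresholds (adjusted p = 0.0161), while without pair 1 or 2 the adjusted p was 0.223 and 0.163.

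Gzma, in contrast, was at 4728.57, 5463.36 and 5940.50 FPKM in WT+PI3Kdi, above the 3 vehicle libraries. FOXO1-GFP KO libraries gave 4551.98, 5330.50 and 4445.42 FPKM, and with PI3Kdi 6495.02, 7331.18 and 5708.37 FPKM. The groups did not overlap in either genotype. The log2 fold change was 0.32 ± 0.10 for WT and 0.44 ± 0.10 for FOXO1-GFP KO with the block (adjusted p = 0.0825 and 0.0211). Without the block the SE was 0.206 (adjusted p = 0.9997 and 0.934).

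Gzmk was the member with the largest fold change with PI3Kdi in WT. It was at 8.94, 11.19 and 10.96 FPKM in WT and at 12.28, 17.77 and 15.70 FPKM in WT+PI3Kdi, with no overlap. The log2 fold change was 0.54 ± 0.09 with the block (adjusted p = 0.00477), a fold change of 1.46, and without it the adjusted p was 0.378. With the block and without pair 1 it was 0.59, which passed both thresholds (adjusted p = 0.0203), while without pair 2 it was 0.48, under the fold threshold (adjusted p = 0.0338), and without pair 3 it was 0.56 with an adjusted p of 0.0780. In FOXO1-GFP KO the levels were 6.84, 8.57 and 7.50 FPKM, and with PI3Kdi 9.92, 8.26 and 9.34 FPKM, which overlapped. Pair 2 moved down, at a ratio of 0.964, and pairs 1 and 3 moved up, at 1.45 and 1.25.

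Gzmm had 3 pairs up and 3 down, with ratios between 0.751 and 1.05. Its log2 fold change was -0.10 in WT, with a 95% interval from -0.31 to 0.10 under the block, and -0.06 in FOXO1-GFP KO, from -0.27 to 0.15.

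Among the packaging and processing proteins, Srgn was at 224.26, 248.70 and 266.36 FPKM in WT and at 247.67, 285.49 and 305.38 FPKM with the inhibitor. FOXO1-GFP KO libraries gave 227.68, 254.90 and 280.02 FPKM, and with PI3Kdi 300.58, 329.81 and 320.77 FPKM, so that the groups overlapped in WT and not in FOXO1-GFP KO. Its log2 fold change was 0.18 ± 0.06 for WT and 0.32 ± 0.06 for FOXO1-GFP KO with the block (adjusted p = 0.0815 and 0.00656). Without the block the SE was 0.12 (adjusted p = 0.9997 and 0.829). Ctsw was between 111.02 and 182.20 FPKM in WT, and its pair ratios were 1.06 to 1.18 there and 1.30 to 1.46 in FOXO1-GFP KO. The spread between its replicates was wide, with replicate 3 highest in all 4 groups, and its log2 fold change in FOXO1-GFP KO was 0.44 ± 0.11 with the block (adjusted p = 0.0262) and 0.44 ± 0.28 without it (adjusted p = 0.934).

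The pairs of Ctsc moved one way in WT and the other in FOXO1-GFP KO, but the responses were not called as different. It was higher with PI3Kdi in the 3 WT pairs, at ratios of 1.10 to 1.16, and lower in the 3 FOXO1-GFP KO pairs, at 0.947 to 0.992. Its log2 fold change was 0.19 ± 0.05 in WT with the block (adjusted p = 0.0610) and -0.04 ± 0.05 in FOXO1-GFP KO (adjusted p = 0.643). Without the block the SE was 0.124 (adjusted p = 0.9997 and 0.953). The difference of the responses, given below, had an adjusted p of 0.304 with the block and was called in neither fit. The interval in FOXO1-GFP KO with the block ran from -0.16 to 0.08 and so included no change.

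Nkg7 and Fasl had small differences. Nkg7 was higher by 1.04 to 1.10 times in the WT pairs and by 1.12 to 1.24 times in the FOXO1-GFP KO pairs, with a log2 fold change of 0.24 ± 0.09 in FOXO1-GFP KO under the block (adjusted p = 0.108). Fasl was higher in 5 of 6 pairs and lower in WT pair 3, at 0.986. Its log2 fold change was 0.21 ± 0.06 in FOXO1-GFP KO under the block (adjusted p = 0.0523).

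**Figure D2:**
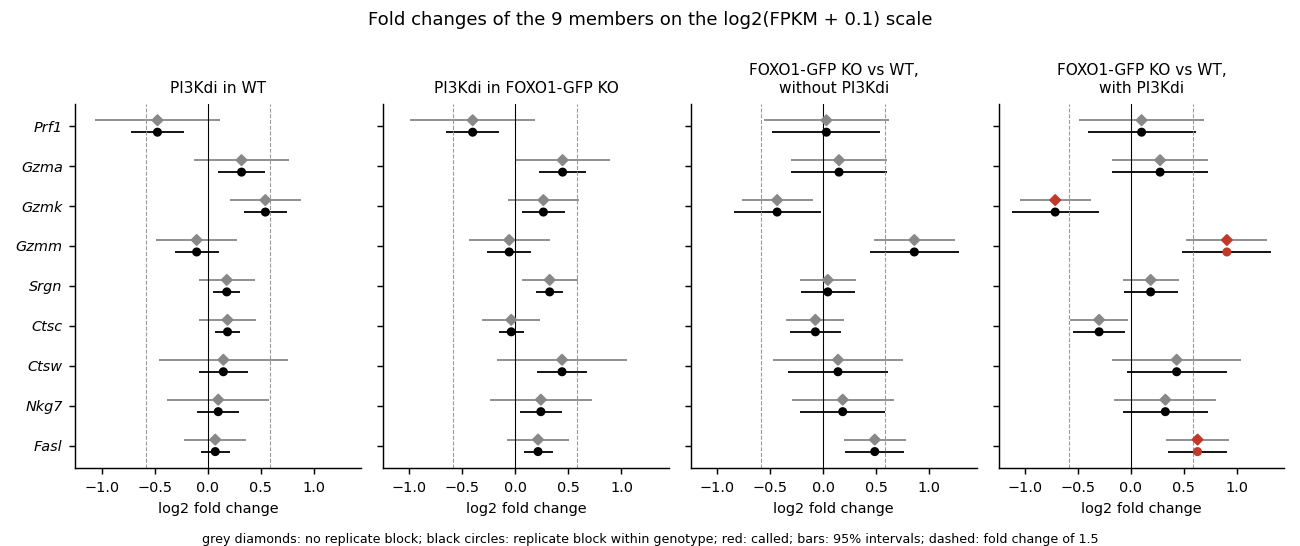
Log2 fold changes of the 9 members on the log2(FPKM + 0.1) scale (horizontal axes) in the 4 comparisons, with 95% intervals, from the fit without a replicate block (grey diamonds) and with the block within genotype (black circles), red where called, and dashed lines at a fold change of 1.5. In the PI3Kdi panels the block narrows the intervals and no point is red, and in the right panel Gzmm and Fasl are red in both fits and Gzmk, at -0.71, only without the block.

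The second comparison addressed the loss of FOXO1. With PI3Kdi present, Gzmm and Fasl were higher in CTL that lacked FOXO1 and Gzmk was lower, with 3 of 9 members called against 1.45% of all genes. The members were chosen with earlier results of these data known, so such shares are a description and do not test the members as a set. With the replicate block within genotype 2 of 9 members (Gzmm and Fasl) were called, against 1.18% of genes. Without PI3Kdi 0 of 9 members were called in either fit, against 0.331% of genes without the block and 0.233% with it. Even so, Gzmm, Fasl and Gzmk had an unadjusted p under 0.05 in both limma fits. So did 6.51% of all genes without the block and 5.09% with it. At that p, voom gave the same 3 members without the block and 2 (Fasl and Gzmm) with it. By both thresholds voom also called 0. The median log2 fold change of the members was 0.27 with PI3Kdi and 0.14 without it, beside 0.01 and -0.01 over all genes.

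Gzmm (ENSMUSG00000054206, chr10:79689020-79695261, plus strand, GRCm38) was at 3.81, 4.61 and 5.29 FPKM in WT and at 7.75, 7.24 and 10.19 FPKM in FOXO1-GFP KO. With PI3Kdi it was at 3.89, 4.82 and 3.97 FPKM in WT and 8.07, 6.80 and 9.20 FPKM in FOXO1-GFP KO. All 6 FOXO1-GFP KO libraries were above all 6 WT libraries, though how many of all genes separated in this way was not counted. With PI3Kdi the log2 fold change was 0.90 ± 0.17 (adjusted p = 0.0255, and 0.0453 with the block), a fold change of 1.87. Without PI3Kdi it was 0.86 ± 0.17 (adjusted p = 0.0841, and 0.145 with the block), a value of much the same size that was not called. The log2 fold change with PI3Kdi stayed between 0.80 and 1.02 when each of the 12 libraries was left out in turn, and it was called in 8 of those 12 fits. Vehicle libraries enter this comparison only through the shared spread, and the call was kept whichever of them was left out. Among the PI3Kdi libraries it was kept only without replicate 2 of either genotype. The call was lost without WT+PI3Kdi replicate 1 or 3 (adjusted p = 0.0928 and 0.108) or FOXO1-GFP KO+PI3Kdi replicate 1 or 3 (0.0869 and 0.116). With the block, it was also lost without replicate number 1, 2 or 3 (adjusted p = 0.238, 0.503 and 0.179).

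Fasl (ENSMUSG00000000817, chr1:161780689-161788495, minus strand) was at 31.37, 30.23 and 34.46 FPKM in WT and at 36.84, 46.95 and 52.09 FPKM in FOXO1-GFP KO. With PI3Kdi it was at 35.51, 31.42 and 33.97 FPKM in WT and at 46.34, 51.40 and 58.94 FPKM in FOXO1-GFP KO. The genotypes did not overlap, and the spread in FOXO1-GFP KO was wider than in WT. The log2 fold change was 0.63 ± 0.13 with PI3Kdi (adjusted p = 0.0435, and 0.0361 with the block), a fold change of 1.55 and so only just over the threshold. Without PI3Kdi it was 0.49 ± 0.13 (adjusted p = 0.220, and 0.246 with the block). With each library left out in turn it stayed between 0.54 and 0.71 and was called in 2 of 12 fits, those without FOXO1-GFP KO replicate 1 or 3, and the adjusted p reached 0.169 without FOXO1-GFP KO+PI3Kdi replicate 3. These 2 are vehicle libraries, which enter only through the shared spread, and the call was lost whichever PI3Kdi library was left out. With the block, the call of Fasl was kept without replicate number 1 (adjusted p = 0.0409). It was lost without replicate number 2 or 3 (adjusted p = 0.966 and 0.283).

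Gzmk (ENSMUSG00000042385, chr13:113171608-113225908, minus strand) went the other way. With PI3Kdi its levels, given above, were between 12.28 and 17.77 FPKM in WT and between 8.26 and 9.92 FPKM in FOXO1-GFP KO, with no overlap. The log2 fold change was -0.71 ± 0.15 (adjusted p = 0.0440), and with the block it was not called (SE 0.19, adjusted p = 0.127). Without PI3Kdi the groups did not overlap either, at -0.43 ± 0.15 (adjusted p = 0.474). With each library left out in turn the value stayed between -0.86 and -0.60, and it was called in 2 of 12 fits, those without WT replicate 1 or WT+PI3Kdi replicate 1, with an adjusted p of up to 0.178 without FOXO1-GFP KO+PI3Kdi replicate 2.

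The other 6 members were not called between genotypes. Their log2 fold changes with PI3Kdi were 0.10 for Prf1, 0.27 for Gzma, 0.19 for Srgn, -0.30 for Ctsc, 0.43 for Ctsw and 0.32 for Nkg7. Ctsc did not overlap between genotypes with PI3Kdi, at 17.65, 14.28 and 15.07 FPKM in WT and 13.33, 13.70 and 11.09 FPKM in FOXO1-GFP KO, and its adjusted p was 0.421. The interval for Prf1, from -0.49 to 0.69 without the block, left room for a difference over 1.5-fold upwards. Some markers of other cells also moved with genotype. The 3 B cell markers in the table summed to between 11.36 and 19.49 FPKM in the WT libraries and between 4.31 and 6.88 FPKM in those of FOXO1-GFP KO, while Cd79a, Ms4a1, Cd22, Ebf1 and Pax5 had no row. The NK receptor gene Klrb1c was at 2.28 ± 0.368 FPKM in WT and 3.27 ± 0.695 FPKM in FOXO1-GFP KO, and with PI3Kdi at 2.45 ± 0.298 and 3.96 ± 0.770 FPKM (SD, n = 3), while Ncr1, Klra4, Klra8 and Klra9 had no row. Eomes was at 84.6 ± 4.36 FPKM in WT and 100.7 ± 8.24 FPKM in FOXO1-GFP KO, and with PI3Kdi at 93.0 ± 16.1 and 94.8 ± 6.62 FPKM. Summed markers of myeloid cells, CD4 T cells, gamma-delta T cells, and mast cells and basophils overlapped between genotypes. The part of such cells, and of the GFP- gate, in the genotype results was not tested.

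The third comparison asked whether the PI3Kdi response itself depended on FOXO1. The difference of responses was called for 0 of 9 members without the block, where limma called 0% of genes (200 of 13283 had an unadjusted p under 0.05), and for 0 of 9 with it, where 0.0226% were. At an unadjusted p under 0.05 limma gave 0 members without the block and 1 of 9 (Ctsc) with it. That share is near the 10.8% of all genes that did so with the block. At that p, voom also gave 0 without the block and 1 (Ctsc) with it, and by both thresholds it called 0. The values ran from -0.28 for Gzmk to 0.29 for Ctsw. For Prf1 the difference was 0.07, with a 95% interval from -0.29 to 0.43 under the block, and for Gzma 0.13, from -0.19 to 0.44. For Ctsc it was -0.23, from -0.40 to -0.06 under the block, with an adjusted p of 0.304.

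Ratios within a library set the opposite movements side by side. They were chosen after the values were seen and are a description. Gzma over Prf1 was 9.35, 9.85 and 12.3 in WT and 17.7, 16.6 and 20.1 in WT+PI3Kdi. FOXO1-GFP KO libraries had ratios of 8.40, 11.1 and 15.5, and with PI3Kdi 15.8, 20.3 and 26.4. The ratio was higher with PI3Kdi in all 6 pairs, which follows from Gzma being higher and Prf1 lower in each of them. Gzmm over Gzmk was 0.440 ± 0.0374 for WT and 1.11 ± 0.258 for FOXO1-GFP KO, and with PI3Kdi 0.280 ± 0.0329 and 0.874 ± 0.0963 (SD, n = 3), and all FOXO1-GFP KO libraries were above all WT libraries.

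**Figure D3:**
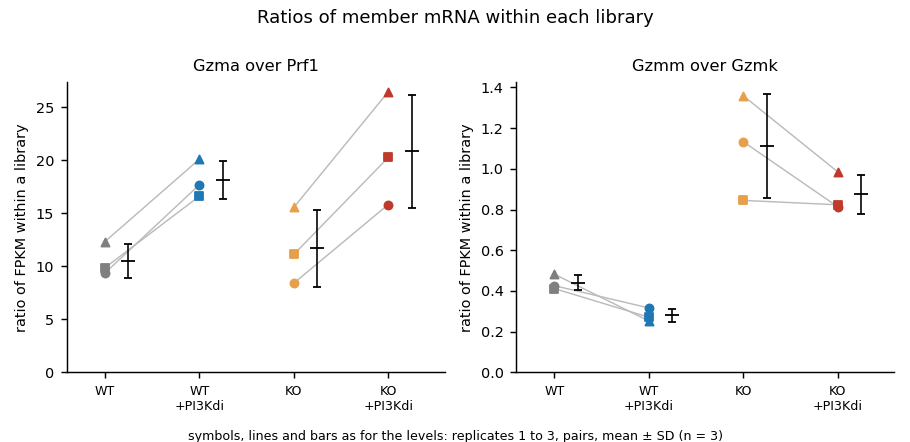
Ratio of FPKM within each library (vertical axes, from 0) for Gzma over Prf1 on the left and Gzmm over Gzmk on the right, with symbols for replicates 1 to 3, grey lines for pairs and bars for the mean ± SD (n = 3). The left ratio rises along every line, as it must where Gzma rose and Prf1 fell. On the right the FOXO1-GFP KO libraries lie between 0.814 and 1.36 and the WT libraries between 0.253 and 0.483.

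The other genes of the pathway were taken from 7 lists of 63 genes in the table, with Gzmn and Ctsh not in it. Without the block 0 of 63 were called with PI3Kdi in either genotype or between genotypes without PI3Kdi, and 2 were called between genotypes with PI3Kdi, both at a lower level without FOXO1, beside 1.45% of all genes. At an unadjusted p under 0.05, limma gave 5 of them with PI3Kdi in WT, 6 in FOXO1-GFP KO and 7 between genotypes without PI3Kdi. The shares of all genes were 5.14%, 5.17% and 6.51%. At that p, voom gave 5, 6 and 6 of the 63, and by both thresholds it called 0 in these 3 comparisons too. The 2 called were Lyst, a regulator of lysosome and granule size, and Stat4, which carries the IL-12 signal. Lyst was at 7.32, 4.41 and 4.73 FPKM in WT+PI3Kdi and 1.60, 1.73 and 1.78 FPKM in FOXO1-GFP KO+PI3Kdi, a log2 difference of -1.60 ± 0.28 (adjusted p = 0.0136, and 0.0236 with the block). Stat4 was at 18.36, 16.11 and 16.66 FPKM and at 8.62, 7.71 and 9.91 FPKM in these groups, a log2 difference of -0.96 ± 0.12 (adjusted p = 0.00237, and 0.00335 with the block). Neither gene overlapped between the groups.

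With the block, 2 of 63 genes were called with PI3Kdi in WT, 1 in FOXO1-GFP KO, and 4 between genotypes with PI3Kdi, beside 2.57%, 2.79% and 1.18% of all genes. The counts with PI3Kdi in either genotype were near that background. In WT, Lyst rose with PI3Kdi from 4.07, 2.52 and 1.74 FPKM (log2 fold change 1.002 ± 0.15, adjusted p = 0.00164). Prdm1, which encodes the transcription factor BLIMP-1, fell from 3.82, 2.59 and 1.92 FPKM to 1.98, 1.82 and 1.41 FPKM (-0.61 ± 0.14, adjusted p = 0.0227). In FOXO1-GFP KO, Gzmf rose with PI3Kdi from 17.98, 22.32 and 12.27 FPKM to 29.49, 46.01 and 20.22 FPKM (0.82 ± 0.14, adjusted p = 0.0051). With PI3Kdi, Gzmd was higher in FOXO1-GFP KO (log2 fold change 1.21 ± 0.24, adjusted p = 0.0344), and Serpinb6b, a serine protease inhibitor, was lower (-0.97 ± 0.20, adjusted p = 0.0361). Gzmd, Gzmf and Serpinb6b belong to families of related genes, and the effect on their counts of reads that match more than 1 gene was not tested.

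The rest of the machinery gave lists with no call in any contrast and either fit. In granule membrane and sorting (8 genes, such as Rab7), the median log2 fold change was -0.02 with PI3Kdi in WT, -0.06 in FOXO1-GFP KO and -0.05 between genotypes with PI3Kdi. In other cathepsins and legumain (8 genes, such as Ctsd) these medians were -0.01, 0.06 and -0.02, and in death receptor ligands and receptors (9 genes, such as Lta and Casp8) they were -0.12, -0.04 and -0.10. Granule exocytosis (15 genes) had medians of -0.03, 0.02 and 0.01, protease inhibitors of the granule pathway (7 genes) -0.06, -0.10 and -0.08, and transcription factors of the cytolytic programme (10 genes) 0.06, 0.05 and 0.07, each with the calls given above. The medians over all genes were -0.04, -0.02 and 0.01. The members' own medians were 0.15, 0.24 and 0.27. The granzyme B cluster had a median of -0.17 with PI3Kdi in WT, 0.24 in FOXO1-GFP KO and 0.92 between genotypes with PI3Kdi over 6 genes that lie together and share sequence.

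**Figure D4:**
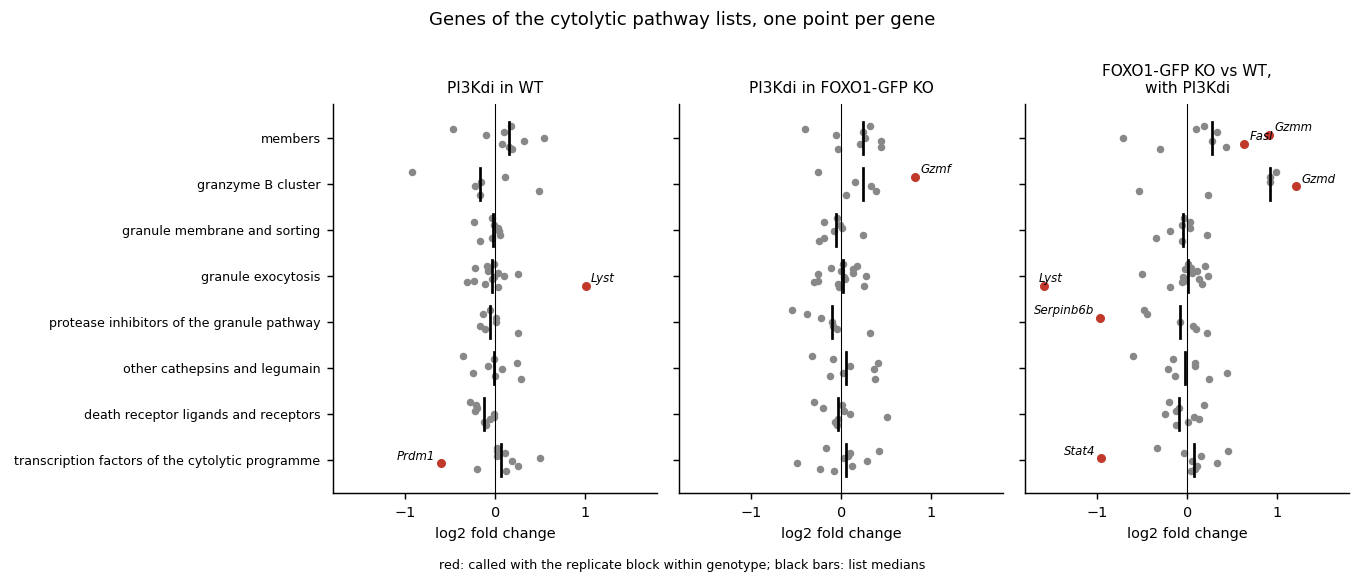
Log2 fold change (horizontal axes) of each gene in the members' list and the 7 pathway lists (rows) in 3 comparisons, with black bars for list medians and red points for genes called with the replicate block within genotype. Most points lie near 0, and the red ones are Lyst and Prdm1 on the left, Gzmf in the middle, and Gzmm, Fasl, Gzmd, Lyst, Serpinb6b and Stat4 on the right.

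Over the 12 libraries some members varied together, given here as Pearson's r of log2(FPKM + 0.1), with no test because the points share pairs, groups and scaling. The highest values were 0.897 for Ctsw and Nkg7, 0.848 for Gzmm and Fasl and 0.819 for Gzma and Srgn. The lowest were -0.786 for Ctsc and Nkg7, -0.782 for Gzmm and Ctsc and -0.734 for Prf1 and Ctsw. Compared with the 10373 genes that averaged 1 FPKM or more, those most like Prf1 were Hars (0.948), Yars (0.943) and Hspa5 (0.936). Hars and Yars encode tRNA synthetases and Hspa5 an endoplasmic reticulum chaperone. Those most like Gzma were Ogfr (0.891), Batf3 (0.891) and Acpp (0.890), and those most like Gzmk were Rab8a (0.940), Fkbp1a (0.937) and Epsti1 (0.934). For Gzmm they were Gm38098 (0.976), Rabggtb (0.964) and Bmerb1 (0.953), and for Fasl Cndp2 (0.960), Zdhhc15 (0.948) and Gclm (0.945). Srgn was most like Trgc2 (0.978), Ascc1 and Acadl, Ctsc most like Add1 (0.962), Lrrc8c and Eri1, Ctsw most like Gngt2 (0.984), Arf5 and Ncf4, and Nkg7 most like Nudt9 (0.992), Mrps16 and Ubxn1.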

How the data were processed

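RNA was sequenced from 12 CTL libraries (4 groups, 3 labelled biological replicates each; whether a number marks one mouse is not given in the sources used here). Per the labels and methods, 300 ng of RNA entered a stranded mRNA kit. The authors aligned reads with STAR 2.7.1a to GRCm38.p6, counted per gene, filtered with edgeR and deposited FPKM after TMM scaling, rounded to 2 decimals. Genes the filter removed could not be tested. Depth was estimated from FPKM steps with GENCODE M21 exon lengths: of low values held out, 98.6 to 99.7% came out whole (within 0.2 of a read), against 40% by chance. No further sample columns were unused (0).

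limma 3.58.1 (R 4.3.3) fitted 4 group means to log2(FPKM + 0.1), with empirical Bayes and a mean-variance trend. Fold changes on this scale understate those of low genes. Benjamini-Hochberg adjustment ran over all 13283 genes, and genes were called at an adjusted p under 0.05 and a fold change over 1.5. Tests were two-sided. For the replicate block, genotype by replicate number entered as a random effect (consensus correlation 0.757): paired libraries' deviations correlated at 0.594 to 0.838 within genotypes and at -0.499 to 0.730 across them, so pairing was used only within genotype. The code was tested on simulated data.

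The alternatives were pseudocounts of 1 and 0.01, a 1 FPKM filter, no trend, median ratio scaling, fewer groups, blocks, libraries left out and, added later, voom on estimated reads. The members and lists were chosen with earlier results of these data known. Named genes were the 9 members, Foxo1, pathway genes called in a contrast (up to 3 each way per list), 1 or 2 of the most abundant genes of lists without a call, and the 3 genes most correlated with each member. Start site windows came from RefSeq (seen for 8 of 9 members), and positions from GENCODE M21. A further B cell marker, beside the 8 counted, was not analysed here.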

Additional observations from a re-analysis of the deposited data

Results flagged for a closer look

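Ctsc, which encodes the protease that activates granzymes, was noted because its pairs moved in opposite directions with PI3Kdi: up in 3 of 3 WT pairs and down in 3 of 3 FOXO1-GFP KO pairs. The falls were small, at ratios of 0.947 to 0.992, and the share of all genes with such a split was not counted. The difference of the responses was -0.23 on the log2 scale, with an unadjusted p of 0.224 without the block and 0.0128 with it in limma, and an adjusted p of 1 and 0.304 over all genes, so it did not pass in either fit. No group had more than 3 libraries, so single libraries were not tested for standing apart.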

How the results depend on the processing

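The count of members called for PI3Kdi in WT was 0, and 0 to 1 when a replicate number was left out of the fit with the replicate block. It was 0 for genotype without PI3Kdi, and 1 (Gzmm) with a replicate block shared by all groups. For genotype with PI3Kdi it was 3. It was then 1 with no mean-variance trend, 1 by voom with the replicate block (chosen after seeing the data), 0 with only the groups of the comparison in the fit, 0 to 2 with a library left out and 0 to 1 with a replicate number left out under the block. Fewer libraries entered the last 3 of these, and the cause of the others was not tested. The replicate block within genotype changed the call of Gzmk between genotypes with PI3Kdi and of no other member. Members higher or lower in all 6 pairs were 5, and 6 after median ratio scaling, an alternative added later.

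Of 1144 member values under an alternative, 1110 kept their direction. The 34 that turned belonged to members not called in that comparison and came with a library or replicate number left out. With a library left out in turn, the log2 fold change with PI3Kdi in WT lay between -0.23 and 0.0052 for Gzmm, -0.032 and 0.32 for Ctsw, and -0.071 and 0.29 for Nkg7. In FOXO1-GFP KO it lay between -0.16 and 0.087 for Gzmm and -0.12 and 0.054 for Ctsc. Between genotypes without PI3Kdi it lay between -0.15 and 0.31 for Prf1, -0.029 and 0.12 for Srgn, -0.13 and 0.0016 for Ctsc, and -0.12 and 0.32 for Ctsw, and with PI3Kdi between -0.084 and 0.38 for Prf1. The difference of responses lay between -0.21 and 0.35 for Prf1, -0.064 and 0.19 for Gzmm, and -0.049 and 0.31 for Nkg7. With a replicate number left out under the replicate block, values that turned were 0.046 for Gzmm with PI3Kdi in WT, -0.0919 and -0.0067 for Prf1 between genotypes without PI3Kdi and -0.16 with it, and differences of responses of -0.066 for Prf1 and -0.062 for Gzmm. Depth limits mainly Gzmm and Gzmk, the members with the fewest reads.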
